A study of Mus musculus with 6 samples.

Results

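Genes of leukocyte capture at the vessel wall were followed in the kidneys of lupus-prone mice, namely the endothelial adhesion molecules Vcam1 and Icam1, the endothelial selectins Sele and Selp, the selectin ligands Selplg and Glycam1, and the carbohydrate-modifying enzymes Chst4, Fut7 and St8sia4. The members are the 9 genes with these names in the array annotation, and every probe that carries one of the names was taken, 15 of the 56605 probes that are not controls. Transcriptomic analysis was performed on whole kidneys of 3 female MRL/MpJ mice (MRL) and 3 female MRL/MpJ-Fas lpr/lpr mice (LPR), all 6 months old and untreated as far as the labels say, with 1 mouse per single-colour array and all 6 arrays on 1 slide. Both groups share the MRL/MpJ background, and LPR mice carry in addition the lpr allele of Fas, the death receptor, in every cell. MRL mice are the controls of the study but are not a healthy strain, since they are known to develop milder autoimmune disease with age. A whole kidney holds all cell types at once, so that more cells of a type and more RNA per cell cannot be told apart. Mice of a group are separate animals, and nothing in the labels describes litters.

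Leukocytes leave the blood in steps. Selectins on the endothelium (P-selectin from Selp, E-selectin from Sele) bind sialylated and fucosylated sugars on mucin-like carriers and slow the cell down, and integrins of the leukocyte then hold to immunoglobulin-like molecules such as ICAM1 and VCAM1. In lymph nodes this takes place in high endothelial venules (HEVs), whose cells make sulfated selectin ligands. In inflamed kidneys the endothelium can switch on E-selectin, P-selectin, ICAM1 and VCAM1, and VCAM1 and ICAM1 are also known from tubular epithelium. These 9 genes address which transcripts of this capture were measurably different in LPR kidneys, in which the study examined lymphoid tissue around blood vessels. Some of them, such as Selplg and Fut7, are made by leukocytes, and whole kidney does not place a transcript on the vessel wall.

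Values are log2 intensities with the 75th percentile of the array subtracted, so that 0 is the 75th percentile and a difference of 1 is a doubling, and a level says nothing about another probe's transcript. A log2 change is LPR minus MRL. A probe entered the limma test when 3 or more of the 6 arrays showed its spot well above background, and the threshold was an adjusted p of 0.05 over all 39926 tested probes. Of the 15 member probes 11 were tested, all of them above background on all 6 arrays, and 4 probes (Sele, 2 of Selp and 1 of Glycam1) were not. In all, 8 of the 11 tested probes were higher in LPR mice and 0 were lower. Over the whole array 6.52% of tested probes were higher and 6.15% were lower. By gene, with the brightest tested probe standing for it, 5 of 8 members were higher (Vcam1, Icam1, Selplg, Fut7 and St8sia4), 3 did not pass (Selp, Glycam1 and Chst4) and Sele had no tested probe, beside 7.14% of all genes higher and 5.42% lower. Over all tested probes the log2 change had a median of -0.14, which lay between -0.14 and -0.11 under the other scalings.

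Before the single genes, the libraries were compared as a whole. Between 69.6% and 73.5% of spots were well above background per array and no spot was saturated. Arrays of the same group had a Pearson's r of 0.99 to 0.993 across probes, and arrays of different groups of 0.961 to 0.971 (probes are no replicates). The kidney markers Umod, Slc34a1 and Lrp2 and 7 further epithelial markers were above background on all 6 arrays. Fas itself did not separate the groups by its brighter probe (log2 change -0.47, adjusted p = 0.234), while a dim probe, above background in 0 of 3 MRL and 3 of 3 LPR mice, passed as higher (adjusted p = 0.0339), by at least 1.47-fold. Neither result checks the lpr allele, since nothing in the files places the probes against it.

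Vcam1, the endothelial counter-receptor of the integrin VLA-4, was higher in LPR mice by both of its probes, which lie on chromosome 3 of build mm9. The annotation used here gives gene names and positions, not whether a probe lies in an exon or an untranslated region. The probe A_51_P210956 (115813216 to 115813275) gave 0.18, 0.01 and -0.05 in MRL 1 to 3 and 2.34, 1.92 and 2.71 in LPR 1 to 3. The groups were separated by a gap of 1.74, and LPR 2 was the lowest LPR mouse. The log2 change was 2.28 (standard error 0.20), or 4.85-fold, with an adjusted p of 0.000602 in limma. The dimmer probe, A_52_P520495 (115828953 to 115829012), gave -3.15, -3.26 and -3.29 in MRL mice and -1.13, -1.54 and -0.94 in LPR mice. Here too the groups did not overlap and LPR 2 was lowest, and the log2 change was 2.03 (standard error 0.16), or 4.09-fold (adjusted p = 0.000389). The 60 bases of this probe, with 1 reading frame free of stops where the brighter probe has 0, show what was read (5′ to 3′, no base singled out).
Vcam1 A_52_P520495: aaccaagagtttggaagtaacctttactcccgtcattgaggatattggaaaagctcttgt

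Icam1, the ligand of the leukocyte integrins LFA-1 and Mac-1, was higher as well, by about 1 log2 unit. On chromosome 9, the probe A_51_P408506 (20833186 to 20833245) gave 0.92, 0.98 and 1.06 in MRL mice and 2.05, 1.93 and 1.96 in LPR mice. The spread within each group was small (SD 0.07 and 0.06) and the groups were separated by 0.87. The log2 change was 0.99 (standard error 0.10), or 1.99-fold (adjusted p = 0.00107). The other probe, A_52_P613241 (20832290 to 20832349), gave -3.10, -3.50 and -3.04 in MRL mice and -1.88, -2.16 and -2.14 in LPR mice, again without overlap. Its log2 change was 1.16 (standard error 0.16), or 2.23-fold (adjusted p = 0.00458). The difference in size between the changes of Vcam1 and Icam1 was not tested. The probes differ in kind. The last 30 bases of the brighter one hold the polyadenylation signal AATAAA (capitals) with 4 bases after it, whereas the dimmer one holds no such signal and is shown whole.
Icam1 A_51_P408506, last 30 bases: agaaacctttcctttgaatcAATAAAgttt
Icam1 A_52_P613241: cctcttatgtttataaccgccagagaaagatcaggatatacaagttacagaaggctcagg

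Sele, which encodes E-selectin and is made almost only by activated endothelium, was near the detection limit. Its single probe, A_51_P455326 (chromosome 1, 165987726 to 165987785), had intensities of 9.0, 5.71 and 3.87 in MRL mice, none well above background. In LPR mice the intensities were 42.5, 5.40 and 11.3, and the probe was well above background in LPR 1 and LPR 3 but not in LPR 2. On the normalized scale these are -6.35, -6.97 and -7.51 against -4.47, -7.10 and -6.07, so that LPR 2 lay within the MRL range and the groups overlapped. With every MRL signal set no lower than the detection limit of its own array (the dimmest spot there well above background), the LPR mean was at least 1.05-fold higher, which rests on LPR 1, since without it the same ratio was 0.646 and no bound can be given (an alternative chosen after seeing the data). Since only 2 arrays were above background the probe was not tested. Over the array, 0.799% of all probes were well above background on 0 MRL and 2 LPR arrays.

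Selp encodes P-selectin, which is stored in granules of endothelial cells and platelets. Of its 3 probes on chromosome 1, only A_51_P211854 (166079660 to 166079719) was tested. It gave -5.51, -5.15 and -5.34 in MRL mice and -4.90, -5.23 and -4.79 in LPR mice. LPR 2 lay within the MRL range, whereas LPR 1 and LPR 3 lay above it. The log2 change, 0.36 with a standard error of 0.16, was not past the threshold (adjusted p = 0.175), and it turned to -0.05 with normexp background correction. The probe A_66_P116477 (166074040 to 166074099) was well above background in LPR 1 and LPR 3 only. Its intensities were 7.01, 5.19 and 3.12 in MRL mice and 15, 9.05 and 14.6 in LPR mice, without overlap, but no fold could be bounded because the LPR mean did not exceed the detection limit of the MRL arrays. The probe A_52_P57843 (166071558 to 166071617) was not well above background on any array (intensities of 2.36 to 5.06).

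**Figure D1:**
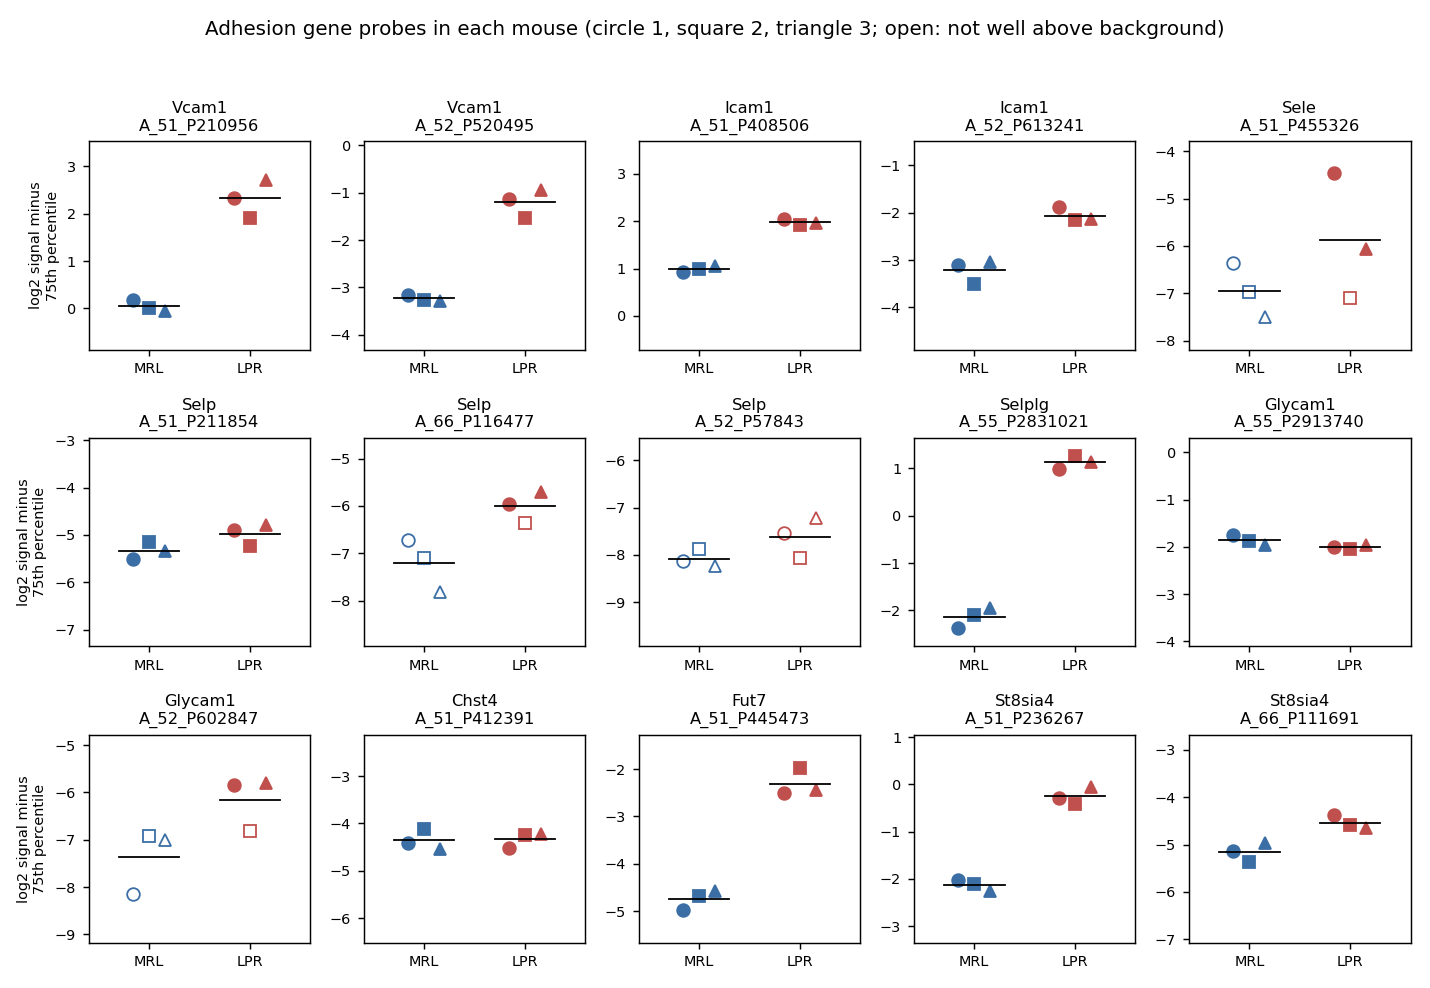
Normalized log2 signal (log2 intensity minus the 75th percentile of the array) of each of the 15 member probes in MRL mice (blue) and LPR mice (red). Circles, squares and triangles are mice 1, 2 and 3, open symbols are spots not well above background, and lines are group means. All panels span the same number of log2 units. The groups are separate, with LPR mice higher, for all probes of Vcam1, Icam1, Selplg, Fut7 and St8sia4. The same holds for 4401 of the 39926 tested probes of the array. It also holds for the untested probes A_66_P116477 of Selp and A_52_P602847 of Glycam1. For the Glycam1 probe A_55_P2913740 the groups are separate with LPR mice lower. LPR 2 falls among the MRL mice for Sele (-7.10) and for the tested probe of Selp (-5.23).

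Selplg, which encodes PSGL-1, the main selectin ligand of leukocytes, had the largest change among the tested member probes. The probe A_55_P2831021 (chromosome 5, 114268564 to 114268623) gave -2.38, -2.09 and -1.94 in MRL mice and 0.98, 1.27 and 1.14 in LPR mice. In intensities this is 141 to 184 against 1666 to 1858. The groups were 2.92 log2 units apart and LPR 2 was the highest mouse. The log2 change was 3.27 (standard error 0.15), or 9.62-fold (adjusted p = 3.32e-05). The last 30 bases of the probe are shown with the polyadenylation signal in capitals.
Selplg A_55_P2831021, last 30 bases: agcacaggcatccAATAAAcatattataat

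Glycam1 encodes a secreted mucin that carries sulfated selectin ligands on HEVs and is also known from milk. Its probes on chromosome 15 lie 152 bases apart and gave different pictures. The bright probe A_55_P2913740 (103393187 to 103393246) gave -1.76, -1.88 and -1.95 in MRL mice and -2.01, -2.04 and -1.96 in LPR mice. The LPR mice all lay below the MRL mice, but by a gap of only 0.01, and 26.9% of all tested probes had LPR mice below MRL mice without overlap. The log2 change, -0.14 with a standard error of 0.10, was not past the threshold (adjusted p = 0.396) and equals the median of the array to 2 decimals. The other probe, A_52_P602847 (103393339 to 103393398), had intensities of 2.59, 5.90 and 5.46 in MRL mice and 16.5, 6.52 and 13.5 in LPR mice. It was well above background in LPR 1 and LPR 3, but not in LPR 2 or in any MRL mouse. It was not tested, and no fold could be bounded. The groups did not overlap, by a gap of 0.09. Which of the probes follows the Glycam1 transcript was not tested. Their sequences are shown because they differ in kind. The bright probe ends in a run of A after a variant polyadenylation signal (ATTAAA, capitals, with 18 bases after it), and the dim probe holds no such signal.
Glycam1 A_55_P2913740, last 30 bases: tcttacATTAAAgtattgcaacctaaaaaa
Glycam1 A_52_P602847: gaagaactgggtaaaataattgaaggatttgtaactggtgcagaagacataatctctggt

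Among the enzymes, Chst4, the sulfotransferase that makes the sulfated selectin ligands of HEVs, did not pass the test. Its probe A_51_P412391 (chromosome 8, 112554079 to 112554138) gave -4.42, -4.11 and -4.53 in MRL mice and -4.52, -4.24 and -4.23 in LPR mice, with overlap of the groups. The log2 change was 0.03 (standard error 0.15, adjusted p = 0.923), and its sign changed with the processing. Fut7, the fucosyltransferase that completes sialyl Lewis x in leukocytes and HEVs, was higher in LPR mice. Its probe A_51_P445473 (chromosome 2, 25281802 to 25281861) gave -4.97, -4.69 and -4.57 in MRL mice and -2.51, -1.97 and -2.45 in LPR mice. The groups were 2.07 apart and LPR 2 was the highest. The log2 change was 2.44 (standard error 0.18), or 5.41-fold (adjusted p = 0.000266). With normexp background correction, which adds an offset of 50 to every intensity, it was 1.19 and still passed. Such an offset by itself shrinks the changes of dim probes. The smaller value therefore does not show how far the size depends on the background.

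St8sia4 encodes a polysialyltransferase, which builds polysialic acid on carriers such as NCAM and on proteins of immune cells. Its brighter probe, A_51_P236267 (chromosome 1, 97484331 to 97484390), gave -2.03, -2.12 and -2.25 in MRL mice and -0.29, -0.43 and -0.05 in LPR mice. The groups were 1.61 apart, and the log2 change was 1.88 (standard error 0.13), or 3.68-fold (adjusted p = 0.000219). The dim probe A_66_P111691 (97524211 to 97524270) gave -5.13, -5.38 and -4.96 in MRL mice and -4.38, -4.59 and -4.64 in LPR mice. The log2 change, 0.62 with a standard error of 0.14, passed (adjusted p = 0.0345). That call was lost under 12 of 22 alternatives, among them the omission of MRL 1, MRL 2, LPR 1, LPR 2 or LPR 3 (adjusted p up to 0.105). With normexp background correction the change was 0.11 (adjusted p = 0.348). The offset of 50 in that correction exceeds the intensities of this probe (17.2 to 45.2), so a smaller change was built in. It therefore does not show how far the size depends on the background.

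**Figure D2:**
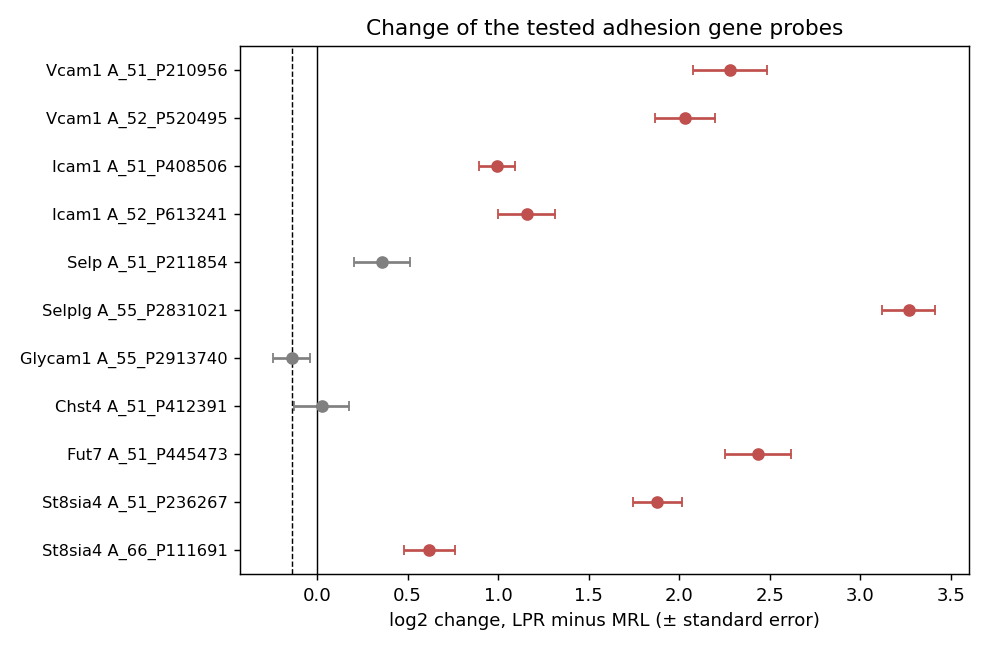
Log2 change (LPR minus MRL) of the 11 tested member probes, with the standard error from limma. Red probes passed the adjusted threshold and grey ones did not, the solid line is 0 and the dashed line is the median of all tested probes (-0.14). Selplg lies farthest right at 3.27, and Selp, Glycam1 and Chst4 lie between -0.14 and 0.36.

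The LPR mice did not rank alike for all members. LPR 2 was the lowest LPR mouse on 7 of the 11 tested probes, and on 5 of the 8 higher in LPR mice. Over the array it was the lowest on 34.0% of tested probes and on 39.0% of those higher in LPR mice. Against the mean of LPR 1 and LPR 3, LPR 2 differed on the log2 scale by -0.61 and -0.50 for the Vcam1 probes and by -0.08 and -0.15 for the Icam1 probes. It differed by -0.38 for the tested Selp probe and by -1.83 for that of Sele, which was not well above background in LPR 2. For Selplg and Fut7 the same difference was positive, 0.21 and 0.51. The median over the probes higher in LPR mice was -0.01. The leukocyte markers had a median of 0.08 and the endothelial markers of 0.06. Members share arrays, so these counts are a description.

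**Figure D3:**
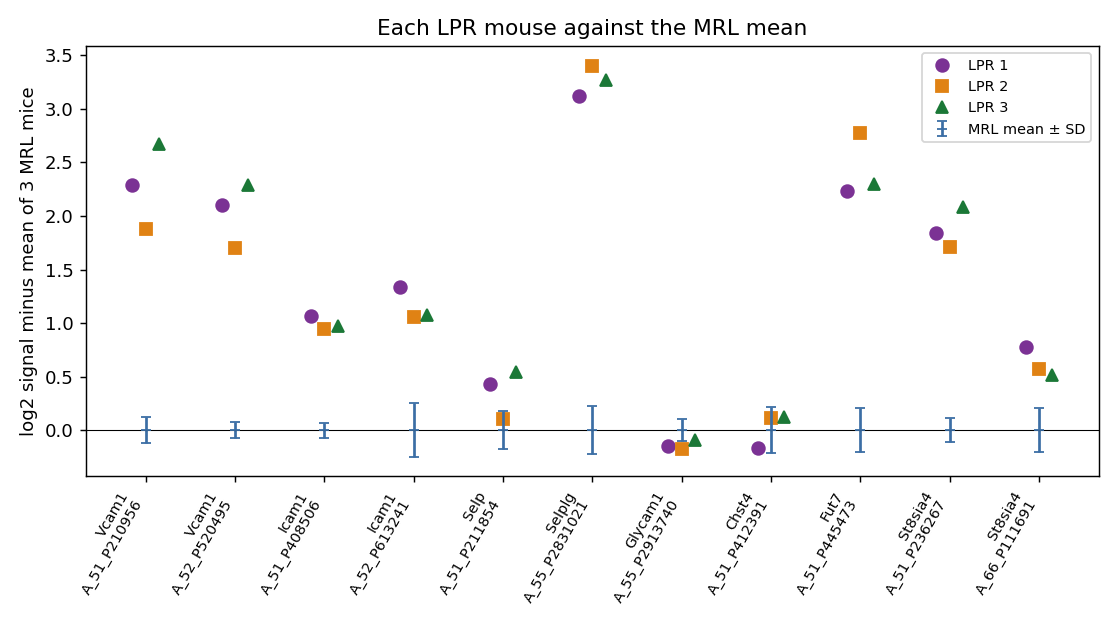
Normalized log2 signal of each LPR mouse minus the mean of the 3 MRL mice, for the 11 tested member probes. Blue bars are the SD of MRL mice around their mean. LPR 2 (orange squares) is lowest for both Vcam1 probes and highest for Selplg and Fut7.

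Among other selectins and selectin ligand carriers, 2 of 10 tested genes were higher and 0 were lower, with a median log2 change of 0.12 beside -0.12 over all genes. The 2 were Cd44 (3.15, standard error 0.14, 8.88-fold, adjusted p = 3.21e-05) and Spn, or CD43 (2.97, standard error 0.28, 7.82-fold, adjusted p = 0.00079). The size for Spn differed by probe. A probe above background on 3 MRL arrays was higher by only 0.50 (adjusted p = 0.0272). Another, above background on 1 MRL array, was higher by 3.23 (adjusted p = 0.00214). On leukocytes both CD44 and CD43 can bind E-selectin when fucosylated. The mucins Cd34 (0.15), Podxl (0.09) and Emcn (-0.38), whose source cell in whole kidney was not tested, did not pass.

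Among the other enzymes of selectin ligand synthesis, 2 of 16 tested genes were higher and 1 was lower, with a median of 0.04. Tpst1, which sulfates tyrosines as PSGL-1 needs for P-selectin, was higher by 0.92 (standard error 0.14, adjusted p = 0.00674). Fut4, the other leukocyte fucosyltransferase of this pathway, was higher by 0.57 (standard error 0.10, adjusted p = 0.0115). Gcnt1, which builds the core 2 branch that carries the ligands, fell by 0.54 (standard error 0.11, adjusted p = 0.025). A dimmer Gcnt1 probe fell by 1.19 (standard error 0.20, adjusted p = 0.0106). With MRL 1, MRL 2, MRL 3 or LPR 1 left out, 0 of these enzymes were lower by the brightest probe of each. With slide position as a block Fut7 was the only gene of the whole enzyme list, members included, that was higher, so that Tpst1 and Fut4 lost their calls. Of the other ST8SIA sialyltransferases 3 were tested and 0 passed by the brightest probe, with a median of -0.34. Probes disagreed for St8sia1, whose brightest did not pass (-0.37) while another was lower (-0.56, adjusted p = 0.0324). Of 7 other genes associated with HEVs, 0 were higher and 2 were lower, with a median of 0.09. The 2 were Gcnt1 and Enpp2 (autotaxin, which fell by 0.72, standard error 0.14, adjusted p = 0.0176). Other Enpp2 probes fell by 0.95 (adjusted p = 0.0359) and 0.58 (adjusted p = 0.0163). By the brightest probe of each, the HEV genes that were lower numbered 0 without MRL 2 or MRL 3. Without MRL 1, LPR 1 or LPR 3 they numbered 1. Madcam1, the addressin of mucosal venules, was above background on 1 MRL and 3 LPR arrays and did not pass (0.52, adjusted p = 0.235).

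Of 14 other immunoglobulin-like and junction molecules 0 were higher and 0 were lower (median -0.01), among them Icam2 (0.42, adjusted p = 0.087), Pecam1 (0.18) and Cdh5 (0.07). The integrin counter-receptors of ICAM1, VCAM1 and MAdCAM1 had 5 of 9 genes higher and 0 lower, with a median of 0.77. Itgax (CD11c) was higher by 3.82 (standard error 0.15, 14.2-fold, adjusted p = 1.79e-05). The chains of LFA-1, Itgal and Itgb2, were higher by 3.17 (standard error 0.25, adjusted p = 0.000363) and 3.15 (standard error 0.29, adjusted p = 0.000672). Itga4, the VLA-4 chain that binds VCAM1, was higher by 2.63 on its brightest probe (standard error 0.37, 6.20-fold, adjusted p = 0.005). On that probe LPR 2 was the lowest LPR mouse, at -0.74 against 0.65 and 0.66. Other Itga4 probes were higher by 2.13 to 4.11 (standard errors 0.17 to 0.34), some of them above background on 0 MRL arrays. The rank of LPR 2 on those probes is not given here. The beta chain of VLA-4, Itgb1, was at 0.02 and did not pass. Probes disagreed for Itgb7, whose brightest probe did not pass (-0.37) while another was higher by 3.02 (adjusted p = 1.98e-05), and for Itgal, of which 1 other probe did not pass (0.13).

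Inducers and NF-kB targets of endothelial activation had 11 of 19 tested genes higher and 0 lower, with a median of 0.61. Ltb, which encodes lymphotoxin beta, was higher by 3.59 (standard error 0.18, 12.1-fold, adjusted p = 5.49e-05). Irf1 was higher by 2.44 (standard error 0.13, adjusted p = 7.16e-05), Il1b by 2.26 (standard error 0.39, adjusted p = 0.0125) and the chemokine Ccl2 by 2.06 (standard error 0.21, adjusted p = 0.00101). For Tnf the brightest probe did not pass (0.15), whereas a dimmer one, above background on 1 MRL array, was higher by 2.95 (adjusted p = 7.66e-05). The count of 11 was 15 by any tested probe of a gene, 8 to 10 with a mouse left out, 7 and 6 by the methods' t-test after adjustment (log2 and linear values) and 5 with slide position as a block. Over all 7 lists, 20 of 73 tested genes other than the members were higher and 2 were lower.

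**Figure D4:**
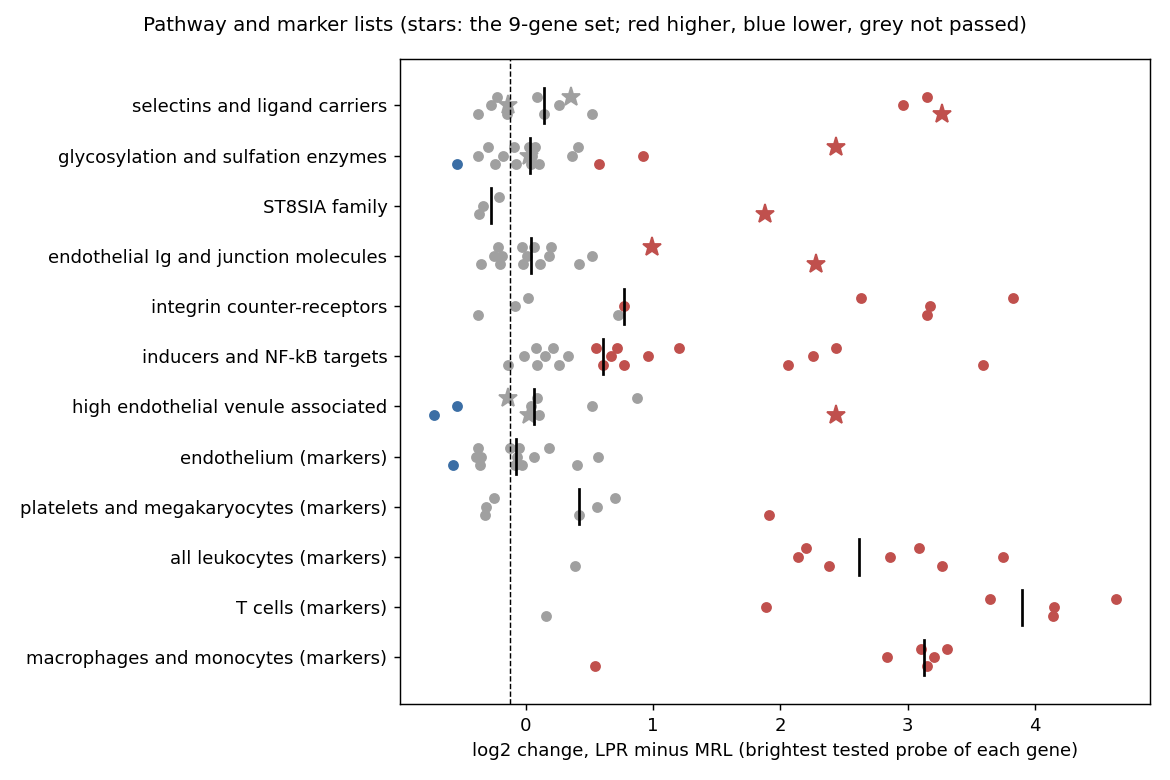
Log2 change (LPR minus MRL) of the brightest tested probe of each gene in the 7 adhesion lists and in 5 marker lists. Stars are the members, red genes were higher, blue genes were lower and grey genes did not pass, bars are list medians and the dashed line is the median of all genes (-0.12). The integrin list has its median at 0.77, the leukocyte markers at 2.62 and the endothelial markers at -0.08.

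Markers of other cell types moved with the groups. Leukocyte markers were higher in 7 of 8 genes (median 2.62), and their summed level on the log2 scale was 2.78 to 3.48 in MRL mice and 5.44 to 5.60 in LPR mice. T cell markers were higher in 5 of 6 genes (median 3.89), for example Cd2 (4.64) and Cd3g (4.15), and macrophage markers in 6 of 6 (median 3.13), for example Aif1 (3.31) and Mpeg1 (3.20). B cell markers were higher in 3 of 5 genes and lower in 1 (median 1.88), with Cd79b at 2.83. The lower gene was Ms4a1, named after its values were seen, by its brightest probe (-0.70), a call lost with any mouse left out, while its other probe was higher by 4.99 (adjusted p = 0.00281). By any tested probe 5 of 5 B cell, 8 of 8 leukocyte and 6 of 6 T cell markers were higher. Neutrophil markers were higher in 3 of 6 (median 0.56), with S100a8 at 2.48 and S100a9 at 2.28, but in 0 with slide position as a block and in 0 by the methods' t-test after adjustment. The part of these cells in the changes of Selplg and Fut7, which leukocytes make, and of Vcam1, Icam1 and St8sia4 was not tested.

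Endothelial markers were higher in 0 of 14 genes and lower in 1 (Kdr, the VEGF receptor, fell by 0.57, adjusted p = 0.0317), with a median of -0.08 and summed levels of 6.05 to 6.12 in MRL mice and 5.91 to 5.98 in LPR mice. Without any single mouse other than LPR 2, 0 of these markers were lower, and without MRL 1 1 was higher. Of the platelet markers, 1 of 7 tested genes was higher, Pf4 (1.91, adjusted p = 0.00295), with a median of 0.42, and the platelets' part in the signal of Selp was not tested. Markers of mural cells and fibroblasts were higher in 6 of 9 genes (median 0.61), with Col1a1 at 2.37 and Col3a1 at 1.43, but in 3 without LPR 3 and in 2 with slide position as a block. Markers of injured tubule were higher in 2 of 6 (median 0.44), namely Lcn2 (2.14) and Vim (1.47). Those of kidney epithelium were lower in 2 of 10 (median -0.25), namely Calb1 (-1.20) and Lrp2 (-0.39). With any mouse left out, 0 or 1 epithelial markers were lower. The other tested Lrp2 probes, at -0.39 to -0.67, did not pass (adjusted p of 0.0522 to 0.105 in limma), whereas the other Calb1 probes passed as lower. Adipose markers were lower in 1 of 6 (Fabp4, -0.83, median -1.62, 0 of 6 without MRL 2), with summed levels of 5.40 to 5.82 in MRL mice and 3.51 to 5.04 in LPR mice. Mammary and salivary gland markers, set beside Glycam1, passed in 0 of 4 tested genes (median -0.40), or in 1 without MRL 3 or LPR 1.

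The genes whose signals over the 6 arrays were most like those of a member were read from 18868 named genes above background on all 6 arrays. With 2 groups of 3 mice such a correlation follows mainly the group difference, and it is given with no p. Vcam1 was most like Timp1, Tnfsf8 and Btla (Pearson's r = 0.996), and 40 genes had an r over 0.99. Icam1 was most like Fes, Adgre5 and Samhd1 (r = 0.999), among 249 such genes. Selplg was most like H2-K1, Psmb8 and Fcgr3 (r = 0.999), among 258. Selp, which did not separate the groups, was most like Tigd3, Nrg1 and Bmp1 (r 0.985 to 0.987), with 0 genes over 0.99.

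Promoter sequences from RefSeq (GRCm38.p6) were matched for 7 of the 9 members, since the set used here held no entry for Vcam1 or Selplg. In the 250 bases before each start, the NF-kB-type motif GGNNNTTCC was searched on both strands (the reverse strand reads GGAANNNCC). It was found in 15.7% of all 32851 windows and in those of Icam1, Sele and Selp, 3 of the 8 windows of members. Icam1 holds 2 matches, 153 and 84 bases before the start, and 1.46% of all windows hold at least 2. The match of Sele begins 145 bases before the start. The 250 bases of Icam1 (chr9:21015690-21015939, plus strand), whose signal was well measured and higher, and of Sele (chr1:164047984-164048233, plus strand), which was at the detection limit, are shown with matches in capitals. A match describes letters only, and no binding was measured.
Icam1: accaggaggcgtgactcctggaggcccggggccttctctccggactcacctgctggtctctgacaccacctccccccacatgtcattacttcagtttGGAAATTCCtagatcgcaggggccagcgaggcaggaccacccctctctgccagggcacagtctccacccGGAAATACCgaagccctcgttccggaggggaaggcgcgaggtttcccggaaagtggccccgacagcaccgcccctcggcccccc
Sele: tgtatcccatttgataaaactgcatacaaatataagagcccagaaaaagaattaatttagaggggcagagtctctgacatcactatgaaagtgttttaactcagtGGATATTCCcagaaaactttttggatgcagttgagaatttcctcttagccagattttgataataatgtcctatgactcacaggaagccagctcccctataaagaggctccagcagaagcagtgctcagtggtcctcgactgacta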

How the data were processed

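Per the labels and the paper's methods, RNA of whole kidneys (the methods name Trizol, the labels the RNeasy Mini Kit) was amplified with a low-input kit, labelled with Cy3 and hybridized. The authors deposited intensities from Agilent Feature Extraction 12.0.3.1, background-subtracted per spot and not normalized between arrays. They also deposited a ratio, each intensity over the 75th percentile of its array with control spots included, which was used as an alternative. Probe coordinates are on mm9.

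Here control spots and outlier-flagged spots (73 to 90 per array) were left out, log2 intensities were taken minus the 75th percentile over 59305 non-control spots (706 to 942), and spots of a probe were averaged. LPR was set against MRL in limma (version 3.58.1, R 4.3.3), and p-values were adjusted by Benjamini-Hochberg. They set the group difference against the spread between these mice only, which limma moderates over all tested probes. The methods' t-test was an alternative. Normexp background correction, another one, added an offset of 50 to every intensity, which by itself shrinks the log2 changes of dim probes. With 3 against 3 mice an exact test cannot go below 0.1, so none is given, and the number of arrays limits the precision. Values of a group are 3 mice. A bound sets the mean of the LPR arrays against MRL signals raised to the lowest signal well above background on their array.

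The members and lists were chosen with earlier results of these data known. From each adhesion list up to 4 genes, and from each marker list up to 2, are named by the size of a change that passed on a probe above background on all 6 arrays. Other genes named, such as those that did not pass, were chosen after their values were seen. Some genes are not reported here and remain in the counts. For likeness, predicted genes and clone names were left out. On simulated data with 200 changed among 39926 probes, limma recovered 147, with 7 false calls and 0 of the wrong sign. The changes were in equal parts of log2 size 1, of which 58 were recovered, and size 2, of which 89 were. Smaller changes were not simulated, so this does not bear on the members that did not pass. Figures used matplotlib in python.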

Additional observations from a re-analysis of the deposited data

How the results depend on the processing

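The counts of member probes and genes moved little. Under every alternative tried, 6 to 8 member probes and 4 to 5 member genes were higher in LPR mice and 0 were lower. Leaving out each mouse in turn gave 7 to 8 probes and 5 genes. The lowest counts, 6 and 4, came from the methods' t-test on linear values with adjustment, where the brighter Vcam1 probe did not pass (adjusted p = 0.0701). Over the 11 tested probes and their alternatives, 222 values kept direction and side of the threshold and 13 lost the call, 12 of them for the dim St8sia4 probe. Values near 0 changed sign. The tested Selp probe A_51_P211854 was at -0.052 with normexp. Chst4 was at -0.062 with normexp and -0.17 with slide position as a block, and between -0.064 and 0.15 when each mouse was left out. Of the untested Selp probes, A_66_P116477 was at -0.020 with normexp, and A_52_P57843 at -0.10 with normexp and -0.26 with a floor at the detection limit. The cause was not tested.

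The arrays lie at different positions of the slide. LPR 2 and LPR 3 have position number 2 and the other 4 arrays number 1, so that only LPR 1 can be set against MRL mice within a position, and there the 8 probes higher in LPR mice differed by 0.78 to 3.12. With position as a block 7 member probes and 5 genes were higher.

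The sample titles number the mice and describe no pairing. Deviations of same-numbered mice correlated at 0.115, 0.020 and 0.005, and those of differently numbered mice at -0.067 to 0.051. MRL 1 correlated best with its own number, whereas MRL 2 and MRL 3 did not. With so few mice these correlations cannot decide whether the numbers pair the samples. With the replicate block 7 member probes and 5 member genes were higher and 0 were lower, 1 probe fewer than without it.

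Counts over the array depended more on the processing. Higher probes numbered 1444 to 3578 against 2604, and lower ones 463 (position as a block) to 7385 (the methods' t-test on linear values, unadjusted) against 2455. Higher genes numbered 5 to 15 against 11 among inducers and NF-kB targets, 1 to 4 against 3 among the enzymes, 4 to 6 against 5 among integrins, 1 to 3 against 2 among immunoglobulin-like molecules and 1 to 2 against 1 among HEV genes. Lower genes numbered 0 to 3 against 1 among the enzymes, 0 to 2 against 2 among HEV genes, 0 to 2 against 0 among selectins and carriers, 0 to 1 against 0 among ST8SIA genes and 0 to 3 against 1 among endothelial markers. Among markers, 3 to 5 of B cells were higher, 0 to 4 of neutrophils against 3, 2 to 6 of mural cells and fibroblasts against 6, 4 to 6 of macrophages against 6, 1 to 3 of injured tubule against 2 and 0 to 1 of platelets against 1. Position as a block gave the lowest count for the enzymes, inducers, neutrophils and mural cells. Probes near background, those of Sele and dim ones of Selp and Glycam1, are limited by the signal, and a difference there was not measurable at this depth.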
